A study of Sus scrofa with 14 samples.

Results

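Meniscus tissue from 7 sham-operated pigs was examined on its own to describe which genes give the strongest signals in it and how far they differ between animals. The 7 arrays were those titled as sham, out of 14 in the series, and the 7 arrays of the operated animals were not analysed here. All 7 animals were male Wuzhishan pigs, a Hainan miniature breed, given as 6 to 7 months old, and their menisci were taken 24 weeks after the sham operation. The series describes 14 pigs divided at random, so each array was taken as 1 animal. The labels do not say what the sham operation involved or which zone of the meniscus was sampled. The animals are called sham 1 to sham 7, as numbered in the labels. Total RNA was extracted from pulverised tissue with TRIzol, amplified, labelled with Cy3 and hybridised to single-colour arrays, so each value is the brightness of a probe. Members were the genes that a RefSeq accession names and that had a probe well above background on all 7 arrays, with the brightest such probe standing for the gene. These were 2234 of the 2389 genes that could be named, and 801 of them had a mean processed signal over 1000. A further 32529 probes were well above background on all 7 arrays without a gene name here, 6431 of them with a mean over 1000, so the order below is one of named genes only.

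The meniscus is a crescent of fibrocartilage between femur and tibia. Its cells lie in a matrix of collagen bundles, which resist tension, and of aggrecan held on hyaluronan by link protein, which binds water and resists compression. The inner zone resembles cartilage and has no vessels, while the outer zone is fibrous, carries vessels and nerves and joins the synovial membrane, so a whole piece also holds endothelial, mural, synovial and immune cells. In a piece of tissue, fewer cells of a type and less RNA per cell cannot be told apart. Interferons act on most cells through receptors, kinases and transcription factors, and switch on a shared set of genes: effectors that block viral replication (MX1, OAS2, RSAD2, EIF2AK2), the ubiquitin-like protein ISG15 and the enzyme USP18 that removes it, and chemokines such as CXCL9 and CXCL10 that draw T cells.

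The 75th percentile of the signal ranged from 418 in sham 2 to 622 in sham 6, and 89.7% to 95.2% of probes were well above background. The highest of these shares was in sham 4, which also had the brightest median probe, 123 against 76.8 to 100.3 in the other 6. Its E1A control spots were the brightest as well, with a median signal of 17.3 against 7.43 to 11.3 in the other 6. Scaled signals below are the processed signal divided by the array's 75th percentile and multiplied by 534, the geometric mean of the 7 percentiles; mean signals are unscaled. Arrays of sham 1 to sham 4 were scanned together and those of sham 5 to sham 7 together. The 75th percentile was 523 ± 94.4 (SD, n = 4) in the first scan and 561 ± 76.8 (SD, n = 3) in the second, a difference within the spread of animals (two-sided exact permutation test over 35 assignments, p = 0.514; the smallest possible p was 0.0571). Spots of the same probe on 1 array differed by a median SD of 0.12 (log2, 35 probes with 5 spots each), against 0.35 between animals for the same probes. Across the 2234 genes, which are not independent replicates, pairs of arrays had a Spearman rho of 0.947 to 0.987; the lowest values involved sham 2, and the lowest among the other 6 animals was 0.958.

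Many of the brightest named genes belonged to the translation machinery. Of the 25 genes with the highest mean signal, 11 encode ribosomal proteins (44%, against 31 of all 2234 genes, 1.39%), 2 further ones (EEF1A1, which brings aminoacyl-tRNA to the ribosome, and TPT1) belong to a list of translation factors, and DCN, MGP and ACAN make extracellular matrix. The other 9 were CRK, FTH1, MUC13, CASP10, PTMA (prothymosin alpha), HSPB1, CYP24A1, TMSB10 and MUT. Brightness depends on how a probe binds as well as on the amount of RNA, so the order is one of probes. The 25 means ran from 85662 (RPLP0, a stalk protein of the large ribosomal subunit) to 153078 (CRK, an adaptor protein of tyrosine kinase signalling), and the next gene, B2M (the light chain of MHC class I), stood at 85340. No spot was marked as saturated.

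**Figure D1:**
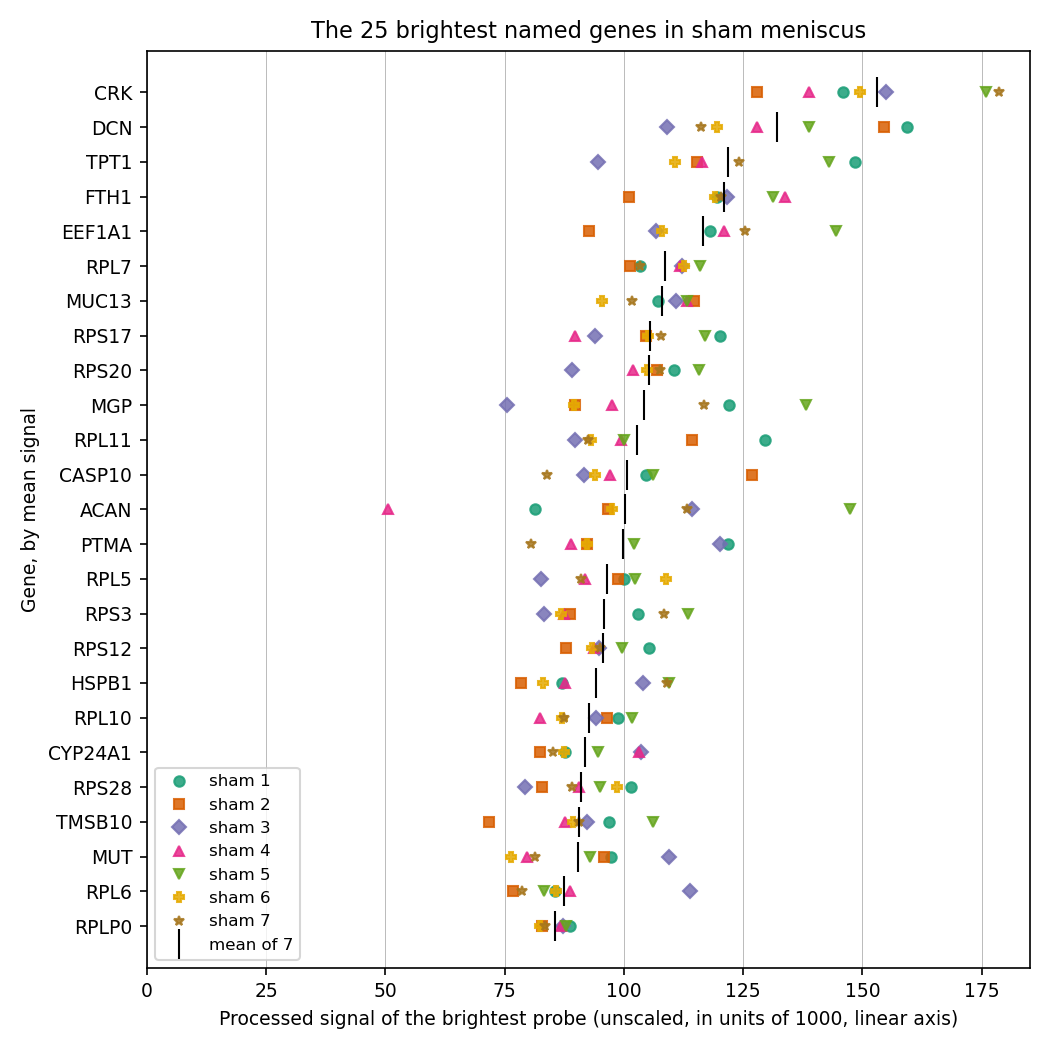
Processed signal (unscaled, linear axis in units of 1000) of the 25 brightest named genes, 1 point per animal and a bar for the mean of 7 animals. RPLP0 has the tightest points and ACAN the widest, with sham 4 lowest at 50481 and sham 5 highest at 147430.

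Among matrix genes, DCN, which encodes the collagen-binding proteoglycan decorin, had the highest mean signal, 132167 ± 19376 (SD, n = 7). Its scaled signal was 142357, 197264, 123944, 112165, 126365, 102665 and 130526 in sham 1 to sham 7, highest in sham 2 and otherwise close together (SD 0.30 log2). MGP, which encodes matrix Gla protein, an inhibitor of calcification, had a mean of 104148 ± 22110.4 and an SD of 0.30. ACAN, which encodes aggrecan, had a mean of 100144 ± 30113; its scaled signal was 72761, 123391, 129926, 44278, 134197, 83755 and 127317. Aggrecan was thus highest in sham 2, 3, 5 and 7, and lowest in sham 4; its SD of 0.60 was the largest of the 25. In each of these 3 genes the scaled signals of the brightest and the second-brightest probe were lowest in the same animal: sham 6 for DCN and MGP and sham 4 for ACAN. Probes of 1 array share its scaling, and sham 6 had the largest 75th percentile. Before scaling, the brightest probes of DCN and MGP were lowest in sham 3, at 108955 and 75422. Among the 25 brightest genes, 24 had a second probe, with the same highest animal in 11 (45.8%) and the same lowest in 15 (62.5%).

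The rest of the fibrocartilage matrix was bright as well. SPARC, a collagen-binding matricellular protein, had a mean signal of 80362, TNC (tenascin-C) one of 57338, and CTGF, a matricellular growth regulator, one of 53760.1. COL5A2 and COL5A1, chains of the type V collagen that nucleates collagen fibrils, had means of 21818 and 19462. All 8 measured genes of a fibrous matrix list of 28 had a mean over 1000, and their median SD was 0.54. The scaled signal of COL5A2 was 32409 in sham 2 and 31462 in sham 3, against 13853 in sham 1 and 8233 in sham 4. Of 24 cartilage genes listed, only ACAN, HAPLN1 (link protein), C15H2orf82 (the small chondrocyte proteoglycan SNORC) and the chondrocyte transcription factor SOX9 could be named and measured, with means of 100144, 11309, 2035 and 795. The median of these 4 means was 6672, and that of the 8 fibrous genes 20639.8, against 339 over all 2234 genes; the other members of both lists were not analysed here.

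All 31 measured ribosomal protein genes had a mean over 1000, none had an SD over 1, and their median SD was 0.25, against 0.39 over all 2234 genes. RPL7, of the large subunit, had the highest mean of them, 108702 ± 5765, and RPLP0 the smallest relative spread of unscaled signal of any measured gene, 0.044 log2. Its unscaled signal ran from 82459 to 88684. After scaling its SD was 0.22, close to the SD of the 75th percentiles themselves, 0.23. Over the 25 brightest genes the median SD was 0.17 before scaling and 0.27 after it, while over the 801 genes it was 0.44 before and 0.39 after. The animal in which the ribosomal list stood highest changed with the scaling: it was sham 2 in 4 of 6 scalings, sham 1 without scaling and sham 7 under median scaling. FTH1, the heavy chain of the iron store ferritin, had a mean of 120918 ± 10608, and TMSB10, which binds actin monomers, one of 90689.7 ± 10395, with SDs of 0.17 and 0.18.

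Several of the 25 owed their place to 1 probe. CRK had 3 other probes, with mean signals of 3736, 1122 and 203, and MUC13, a transmembrane mucin of epithelia, 3 others at 36.3, 35 and 15.2 beside 108071 for its brightest. MUT, the mitochondrial methylmalonyl-CoA mutase, had 1 other at 1483, CYP24A1, which inactivates vitamin D, 1 other at 4426, and the small heat shock protein gene HSPB1 1 other at 659. In these 5 genes the brightest probe was over 10 times as bright as the next, and the level of the gene is uncertain. CASP10, an initiator caspase, was mixed: 2 of its 5 other probes read 83235 and 55448 and the remaining 3 read 289, 78 and 50.3. When the mean of all probes stood for a gene, 18 of the 25 stayed among the brightest 25. Over the 622 genes with a mean over 1000 and a second probe, the brightest exceeded the second by over 10 times in 127.

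Most genes differed little between animals. Among the 801 genes with a mean over 1000 the median SD was 0.39 (log2), and the highest animal exceeded the lowest by a median of 2.12 times. An SD over 1, a spread in which 1 SD is a doubling, was found in 50 genes (6.24%). The 25 genes with the largest SD ran from TNMD at 1.99 to USP18 at 1.20, and the 3 genes just below were PDK4 at 1.16, SLPI at 1.16 and LYZ at 1.15. At the mean of 1000, the last genes inside were AMY2, DPYD and TSHZ2 (1018, 1016 and 1006) and the first outside were RTN2, TEAD1 and RBM4B (986, 981 and 979). Of 15 interferon-stimulated genes with a mean over 1000, 11 had an SD over 1 (73.3%). The count was 2 of 3 cartilage genes, 2 of 5 synovial lining genes, 2 of 6 adipocyte genes, 2 of 6 macrophage genes and 0 of 31 ribosomal protein genes. It was also 0 of 14 genes of oxidative phosphorylation, 0 of 10 of the proteasome and ubiquitin list, 0 of 7 of smooth muscle and pericytes and 0 of 5 of endothelium, lists too small to stand apart from a share of 6.24%. Among the 25 most variable genes the highest animal was sham 7 in 8, sham 2 in 6, sham 1 and sham 4 in 4 each, sham 6 in 2, sham 5 in 1 and sham 3 in 0; over the 801 genes these shares were 15.7%, 16.5%, 21%, 6.87%, 14.7%, 11.4% and 13.9%. The lowest was sham 4 in 12, sham 2 in 5, sham 6 in 3, sham 3 and sham 7 in 2 each, sham 1 in 1 and sham 5 in 0, against 42.3%, 18.5%, 12.6%, 11.1%, 3.25%, 7.24% and 4.99%. Low values in sham 4 were thus common in all 801 genes.

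**Figure D2:**
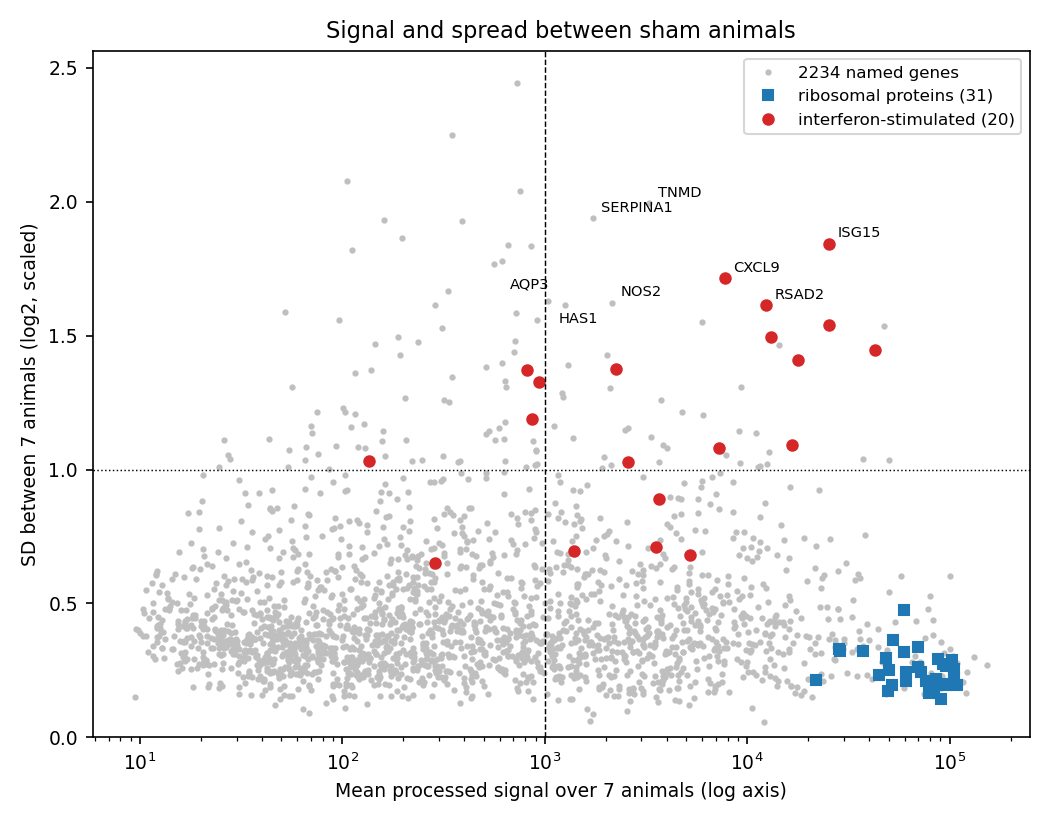
SD between the 7 animals (log2, scaled) against mean processed signal (log axis) for the 2234 named genes, with 20 interferon-stimulated genes in red and 31 ribosomal protein genes in blue. The dashed line marks a mean of 1000 and the dotted line an SD of 1; red points to the right of the dashed line lie mostly above the dotted one and every blue point lies below 0.5.

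Interferon-stimulated genes gave 8 of the 25 most variable genes, more than any other of 36 lists, against 15 of the 801 genes ranked. The lists differ in size and were chosen with earlier results of these data known. The 25 also held USP18, which is not on that list. ISG15 had a scaled signal of 45848, 37273, 10734, 2016, 26536, 4447 and 57248 in sham 1 to sham 7, a 28.4-fold range with an SD of 1.84. MX1, a GTPase that traps viral nucleocapsids, read 46237, 24156, 11559, 4359, 35466, 4381 and 53798, an SD of 1.54. RSAD2 (viperin), a radical SAM enzyme that makes a chain-terminating nucleotide, read 18263, 14792, 4789, 1769, 18568, 2252 and 28444, an SD of 1.61. These 3 genes were high in sham 1, 2, 5 and 7, intermediate in sham 3 and low in sham 4 and 6. The groups of animals were read from these genes themselves. High and low animals were found in both scans: sham 1 and 2 against sham 3 and 4 in the first, and sham 5 and 7 against sham 6 in the second.

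The other antiviral effectors repeated this order in part. OAS2, which makes the oligoadenylates that activate RNase L, ranged from 2917 in sham 4 through a median of 18957 to 38312 in sham 1 (SD 1.41). ISG12(A), a small mitochondrial and nuclear membrane protein of the IFI27 family, ranged from 6850.0 in sham 4 through a median of 36679 to 125137 in sham 7 (SD 1.45). BST2 (tetherin), which holds budding virions at the cell surface, ranged from 467 in sham 4 through a median of 1341 to 5892 in sham 7 (SD 1.38). USP18 ranged from 1575 in sham 4 through a median of 6202 to 12318 in sham 7 (SD 1.20), and EIF2AK2, the kinase PKR, from 817 in sham 4 through a median of 2385 to 5408 in sham 7 (SD 1.03, 0.91 without sham 4). Sham 7 or sham 1 was highest and sham 4 lowest in each of the 5, by the brightest probe. The dimmer effectors IFIT3, DDX58, MX2 and OASL, with means of 931, 815, 863 and 136, had SDs of 1.33, 1.37, 1.19 and 1.03, with sham 7 highest in all 4; the SD of OASL was 0.77 without sham 7.

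The transcription factors of the pathway spread less than its effectors. STAT2, which carries the signal to the nucleus, had an SD of 0.68, and IRF9, its DNA-binding partner, one of 0.70. IRF7, which amplifies interferon production, had an SD of 0.65 at a mean of only 287. TYK2, a kinase bound to the type I interferon receptor, was 1 of the 10 least variable genes, with an SD of 0.12 at a mean of 5167. Over the 15 list members with a mean over 1000, sham 1 or sham 7 was highest in 14 and sham 3, 4 or 6 lowest in all 15, against 294 (36.7%) and 529 (66%) of the 801 genes. Sham 1 and 7 both stood above sham 3, 4 and 6 in 11 of the 15, against 166 (20.7%) of the 801. These groups of animals were read from the same genes, so the counts describe the list and test nothing. Summed over the 20 measured members, the scaled signal ran from 38771 in sham 4 to 403114 in sham 1. The array of sham 4 also had the largest share of probes above background and the brightest E1A control spots. The part of these array differences in the low interferon-stimulated levels was not tested. For the list, sham 4 was lowest and sham 1 highest in all 6 scalings.

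A second pattern within the same list had its peak in sham 1. CXCL9 read 31435, 9552, 1468, 1559, 1498, 4557 and 1781 in sham 1 to sham 7, and CXCL10 37251, 18282, 2648, 2060.1, 6859, 9142 and 13849.9; both encode ligands of the receptor CXCR3 of T cells. GBP1, a guanylate-binding protein that attacks intracellular pathogens, read 52994, 13397, 6588, 4905, 10014, 12750.1 and 10047. Sham 1 was highest in all 3, and sham 7, which led many antiviral effectors, reached 1781 for CXCL9 against 31435 in sham 1. GBP2 and the transcription factor IRF1 were also highest in sham 1, at 23432 and 10396, against at most 7100.1 and 2987 in the other animals. Without sham 1 the SD fell from 1.09 to 0.57 for GBP1, from 1.08 to 0.52 for GBP2, and from 1.71 to 1.12 for CXCL9. For CXCL10 it fell less, from 1.49 to 1.27. CCL2, which draws monocytes, was highest in sham 1 as well, at 25287, and lowest in sham 3, at 1653 (SD 1.31, 1.06 without sham 1).

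Some immune cell and antigen presentation genes were also highest in sham 1. CD8A, the co-receptor of cytotoxic T cells, read 2094, 196, 166, 138, 161, 381 and 186, and the granule protease GZMA 1281, 172, 138, 158, 112, 129 and 103; sham 1 was highest in both and stood apart from the other 6. CCL5 and GZMB were also highest in sham 1, at 2122 and 4304. The T cell receptor complex was dim, with means of 21.5, 55.2 and 85.9 for CD3D, CD3E and CD3G. The summed scaled signal of the 14 measured T and NK cell genes of 21 listed ran from 1809 in sham 5 to 10892 in sham 1. PSMB9 and PSMB10, subunits of the immunoproteasome, were highest in sham 1 at 12526 and 32704, against at most 4073 and 12353 elsewhere, and SLA-DRA, the MHC class II alpha chain, was highest there too, at 64339, and lowest in sham 4, at 18778. As a list, the 12 measured MHC class II and antigen presentation genes of 14 were highest in sham 1 and lowest in sham 2, with mean log2 deviations of 0.67 and -0.44. Macrophage genes followed a different order: the sum of 10 measured genes of 18 listed ran from 11859 in sham 2 to 53302 in sham 7, and CD163, the haemoglobin scavenger receptor, read 10726, 3030.2, 6343, 22017, 10959, 8665 and 23383. CD163 was thus high in sham 4, where interferon-stimulated genes were lowest, as well as in sham 7. The part of immune cells in the interferon-stimulated levels was not tested.

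**Figure D3:**
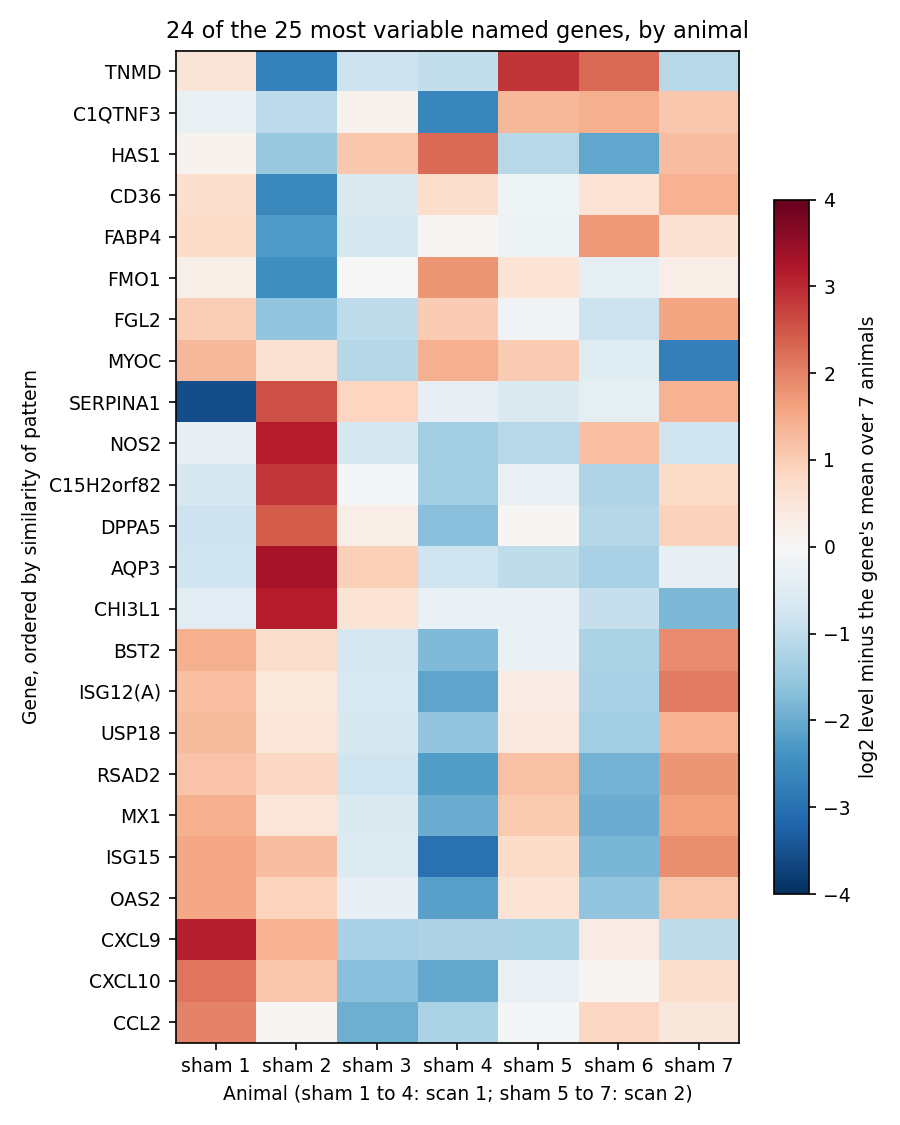
Log2 level minus the gene's mean over 7 animals for 24 of the 25 most variable named genes (rows, ordered by similarity of pattern) in each animal (columns). The block from BST2 to OAS2 is high in sham 1, 2 and 7 and low in sham 4 and 6, the 6 genes from SERPINA1 to CHI3L1 are highest in sham 2, and CD36, FABP4, FMO1 and TNMD are lowest there.

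Several of the 25 owed their spread to sham 2. It was highest in 6 of the 25 (24%) and lowest in 5 (20%), shares near those over the 801 genes (16.5% and 18.5%). CHI3L1, a chitinase-like glycoprotein of chondrocytes and macrophages, read 2632, 31325, 5229.6, 2986, 2974, 1906 and 1041, and NOS2, the inducible nitric oxide synthase, 949, 10657, 729, 454, 559, 2758 and 692. AQP3, a channel for water and glycerol, read 333, 5729, 1132, 337, 287, 236 and 467. Sham 2 exceeded every other animal in these 3 genes, and without it the SD fell to 0.78, 0.92 and 0.81 from 1.55, 1.62 and 1.63. AQP3, with a mean signal of 1035, was ranked only through sham 2: its unscaled signal was 4486 there and at most 995 elsewhere. Averaged over all its probes, NOS2 had an SD of 0.78. C15H2orf82 was 9627 in sham 2 and at most 2278 elsewhere (SD 1.43, 0.77 without sham 2), and DPPA5, a pluripotency-associated RNA-binding protein, 5094 against at most 1799 (SD 1.39, 0.97 without sham 2). SERPINA1 (alpha-1-antitrypsin), the plasma inhibitor of neutrophil elastase, read 91.4, 6422, 1965, 860.0, 724, 832 and 2807: highest in sham 2, and far lowest in sham 1 (SD 1.94, 1.25 without sham 1).

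FABP4, CD36 and FMO1 were lowest in sham 2. FABP4, a fatty acid chaperone of adipocytes, macrophages and capillary endothelium, read 4402, 545, 1699.9, 2712, 2279, 8756 and 4029, and CD36, a fatty acid transporter of the same cells, 2472, 263, 1058, 2582, 1400.3, 2299.6 and 4143. FMO1, a flavin monooxygenase, ranged from 159 in sham 2 through a median of 1046 to 2965 in sham 4. The mean signal of FMO1, 1231, was over 1000 only with sham 4 included. Without sham 2 the SDs fell from 1.26 to 0.84 for FABP4, from 1.30 to 0.70 for CD36 and from 1.27 to 0.72 for FMO1. Averaged over all its probes, CD36 had an SD of 0.83. FGL2, a secreted and membrane-bound immune regulator, was lowest in sham 2 too, at 1164, and highest in sham 7, at 10416 (SD 1.21). Of the 50 genes with an SD over 1, 29 kept it without sham 2, and 30 of the 801 genes had it in all; without any other single animal the total was 44 to 57, with the 801 genes held fixed. The adipocyte list (18 measured genes of 22, 6 of them with a mean over 1000) had means of 19 to 10372. Its mean log2 deviation differed little between animals, from -0.12 in sham 2 to 0.13 in sham 4. Among its dimmer members, the hormone ADIPOQ had a mean of 151, and PLIN1 was not well above background on all 7 arrays.

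Cell type marker lists differed in the same animal. The mean log2 deviation of the endothelial list (8 measured genes of 17) was -0.87 in sham 2 and that of the smooth muscle and pericyte list (7 of 14) -0.71, the lowest of the 7 animals in both, while the cartilage list (4 of 24) was at 1.40, the highest. C15H2orf82, described above for its peak in sham 2, is 1 of these 4 cartilage genes, and the value of the list without it was not calculated. CDH5, the cadherin of endothelial junctions, read 10152, 2628, 9432, 5709.6, 9149.9, 12292 and 7753, and RGS5, a pericyte regulator of G protein signalling, 10710.2, 2707, 7583, 4368, 7313, 16351 and 7476. HAPLN1 read 7458, 21642, 16264, 2708, 8128, 10749.9 and 16896, and SOX9 476, 1812, 1290.2, 323, 684, 714 and 591. Sham 2 was lowest in 4 of the 8 endothelial and 4 of the 7 smooth muscle and pericyte genes. It was highest in 3 of the 4 cartilage genes, all but ACAN, which was highest in sham 5. Over all 2234 genes sham 2 was lowest in 13.8% and highest in 23.9%, and these lists hold few genes. Sham 4 was lowest for HAPLN1 and SOX9. Summed scaled signals ran from 15058 in sham 2 to 45729 in sham 6 for the endothelial list and from 28065 in sham 2 to 65936 in sham 3 for the smooth muscle and pericyte list. The highest and the lowest animal of these 3 lists, of the macrophage list and of the interferon-stimulated list by mean deviation were the same in all 6 scalings. The part of these cell types in the levels of FABP4, CD36, CHI3L1 and the other genes above was not tested.

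**Figure D4:**
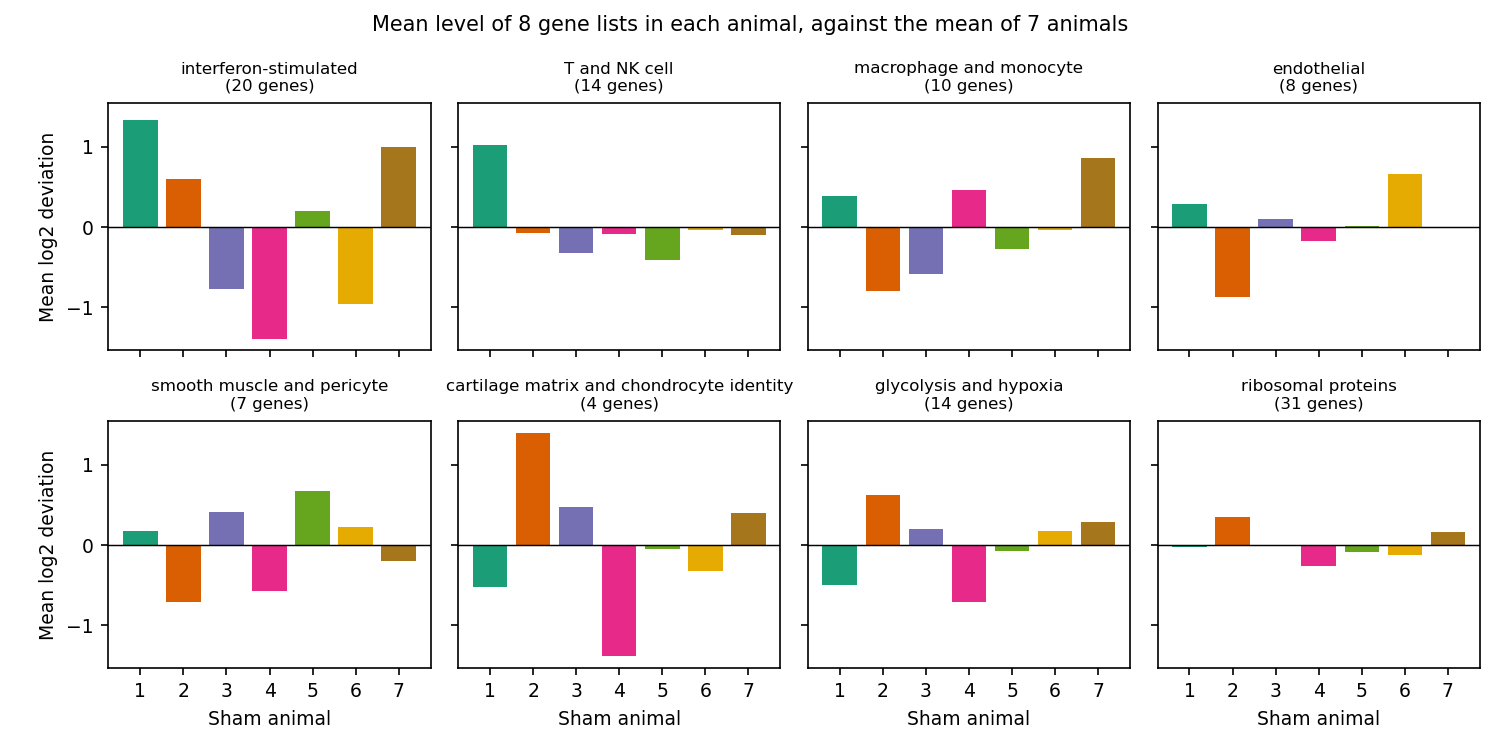
Mean log2 deviation of 8 gene lists in each sham animal from the mean of 7 animals, with the number of measured genes in each panel. Interferon-stimulated genes are high in sham 1 and 7 and low in sham 4, T and NK cell genes stand out in sham 1, and vessel lists and cartilage genes go opposite ways in sham 2.

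The remaining variable genes had orders of their own. TNMD (tenomodulin), a membrane glycoprotein of tendon and ligament cells, had the largest SD and read 1940.2, 209, 777, 685, 10019, 6520.4 and 629.6 in sham 1 to sham 7; sham 5 and 6 stood far above the rest and sham 2 lowest, a 47.9-fold range. C1QTNF3, a secreted protein of developing cartilage, read 8041, 4843, 10843, 1631, 24762, 26609 and 20772. Here the 3 animals of the second scan were all above the 4 of the first, and without sham 4 the SD fell from 1.46 to 1.00. MYOC (myocilin), a secreted glycoprotein best known from the eye, had a mean of 47272 and read 77258, 47048, 14057, 84005, 63004, 22375 and 4699.9: low in sham 7, and to a lesser degree in sham 3 and 6 (SD 1.54, 1.04 without sham 7).

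HAS1 was highest in sham 4. HAS1, a hyaluronan synthase of synovial lining cells among others, read 827, 263, 1573, 3624, 344, 179 and 1759; sham 3 and sham 7 followed and sham 6 was lowest. Its SD was 1.62, and 1.39 without sham 4. The synovial lining list (7 measured genes of 11) had a mean log2 deviation of 1.02 in sham 4, the highest animal in all 6 scalings. HAS1 is itself on that list; without it the value was 0.82, still the highest, in a calculation added after seeing the data. The summed signal of the list was instead highest in sham 2, at 53331, where CLU (clusterin, a secreted chaperone) read 31429 against 12573 in sham 4. HBEGF, a growth factor of that list with a mean of 560.5, was 2411 in sham 4 and at most 493 elsewhere. Sham 4 was at the same time the lowest animal for 339 (42.3%) of the 801 genes, a share that was 19.4% without scaling, 26.7% under quantile normalization and 57.1% under median scaling.

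Where 1 of the 25 most variable genes had a second probe, it mostly showed the same animals. Of the 25 most variable genes 17 had one well above background on all 7 arrays; it had the same highest animal in 15 and the same lowest in 13, against 347 (55.8%) and 358 (57.6%) of the 622 genes with a second probe. The second probe had an SD over 1 in 14 of the 17, against 28 of 622 (4.5%). The 7 probes of FABP4 were all highest in sham 6 and lowest in sham 2, the 3 of MYOC all highest in sham 4 and lowest in sham 7, and the 5 of MX1 had SDs of 1.27 to 1.55. DPPA5 did not repeat: over both its probes the SD was 0.85, and its second probe, with a mean of 215, had an SD of 0.41 with sham 3 highest. TNMD, ISG15, CXCL9, HAS1, C1QTNF3, ISG12(A), C15H2orf82 and BST2 had 1 probe each.

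**Figure D5:**
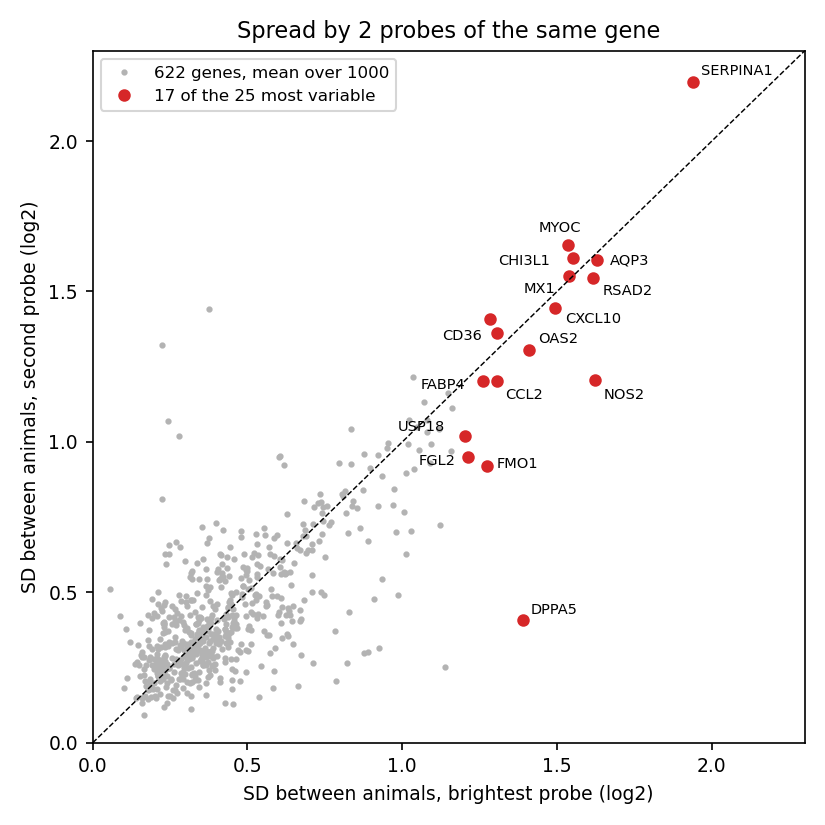
SD between animals (log2) of the second-brightest probe against that of the brightest probe, for 622 named genes with a mean over 1000; 17 of the 25 most variable genes are red, and the dashed line marks equal SD. SERPINA1 lies highest on both axes and DPPA5 far below the line.

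The 10 least variable genes among the 801 had SDs of 0.057 to 0.14. KLF3, a transcriptional repressor, was the steadiest at a mean of 12142: its scaled signal ran from 11136 in sham 7 through a median of 12013 to 12518 in sham 6. CSTF1, a subunit of the 3′ end cleavage factor, ran from 1573 in sham 5 through a median of 1649 to 1786 in sham 1. The others were NFS1 (the cysteine desulfurase of iron-sulfur clusters), CS (citrate synthase), the lipoxygenase ALOX15, the clathrin heavy chain CLTC, TYK2, the nuclear RNA surveillance factor ZCCHC8, the ubiquitin-conjugating enzyme UBE2D3 and the heat shock factor-binding protein HSBP1. Before scaling these 10 had a median SD of 0.25, near that of the 75th percentiles. Their second probes were not as steady: in the 7 genes with one, its SD was 0.18 to 0.51, and for KLF3 it was 0.51 at a mean of 498.

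A mean under 100 was found in 650 of the 2234 genes (29.1%). Of 16 measured genes of fast and shared skeletal muscle 6 had a mean under 100, and of 8 slow fibre genes 6; ACTA1 (skeletal actin) and MYOG (myogenin) had means of 9677 and 1469.8. Of the myosin heavy chains, MYH2 had a mean of 111, MYH1 of 55.3, MYH4 of 54.6 and MYH7 of 45.8. CKM (muscle creatine kinase) reached 904 in sham 4 and 540.3 in sham 7 with at most 192 in the other 5, and TNNT3 (fast troponin T) 917 in sham 3 and 848 in sham 2 with at most 207 elsewhere. The neutrophil alarmins S100A8 and S100A9 had means of 49.9 and 42.4 and the embryonic haemoglobin HBE1, the only globin named here, 54.1. Some low-signal genes varied as much as the 25 above, outside the ranking because their mean was under 1000. HK2 and VEGFA, glycolytic and angiogenic targets of hypoxia signalling, were 585 and 348 in sham 2 against 19.9 and 22.2 in sham 4 (SD of HK2 1.93). These sham 4 values were dim: the unscaled median of the E1A control spots on that array was 17.3. The complement genes CFB and C3 had SDs of 2.04 and 1.59 (C3 1.01 without sham 4), with CFB highest in sham 7 and C3 in sham 4 and both lowest in sham 2, and the chemokine CXCL8 one of 1.82, highest in sham 6.

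The scan of the arrays was compared across all probes with limma. Of 37567 probes well above background on all 7 arrays, 1 (0.00266%) was called between the scans at an adjusted p under 0.05, higher in the second and without a gene name, and 4549 (12.1%) had an unadjusted p under 0.05. That number was 11577 without sham 1, 3023 without sham 2, 2173 without sham 6, 2141 without sham 7 and 2320 under normexp. Among the 2234 named genes limma called 0 (0%), and 254 had an unadjusted p under 0.05; the smallest adjusted p was 0.0931, for KLF1. Of the 25 most variable genes only C1QTNF3 and TNMD had an unadjusted p under 0.05, with second-minus-first differences of 2.22 (SE 0.55) and 2.34 (SE 0.96) and adjusted p of 0.319 and 0.412, and none of the 20 interferon-stimulated genes did. With the scan means removed, the SD stayed over 1 in 24 of the 25, and for C1QTNF3 it was 0.94. The authors' deposited log2 table gave 9 called probes in place of 1, and 1 of the 9 stood for a named gene. Leaving out any 1 animal gave 0 called probes.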

How the data were processed

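Probe intensity was taken as the processed signal that the authors deposited, made per the file headers with Agilent Feature Extraction 11.0.1.1, which subtracts background and spatial trend within an array and does not normalize between arrays. Marked spots were set missing and replicate spots averaged. Each array's log2 signals were centred on its own 75th percentile, control spots left out. The deposited log2 table of the authors served as an alternative, and 7 of its columns were not used. No source used here states its normalization. Its median was 5.99 on all 7 arrays. Over the 801 genes it gave the same counts of highest and lowest animals as quantile normalization. These 2 of the 6 scalings are thus not separate checks. Of 43603 probes, 5779 carried a RefSeq accession and 5461 matched a gene in a RefSeq gene table (assembly Sscrofa11.1). Scans were compared with limma 3.58.1 (R 4.3.3) and Benjamini-Hochberg adjustment, tested on simulated data; brightness with an exact permutation test (scipy 1.17.1). Slide identifiers were emptied, so the scan stood for the planned slide. The files used here hold no mean signal, so normexp used median signals, a choice made after seeing the data. Genes named were the 25 brightest, the 25 most and 10 least variable, up to 4 brightest and 2 most variable members of each of 36 lists, and 3 on either side of the mean of 1000. ADIPOQ, CD3D, CD3E, CD3G, COL5A1, KLF1, MYH1, MYH2, MYH4, PDK4, PLIN1, S100A8, S100A9 and SLPI were chosen after their values were seen. Members and lists were chosen with earlier results of these data known. Leaving out each animal, other scalings, filters and probe rules were tried. Some genes that the rule names are not reported here.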

Additional observations from a re-analysis of the deposited data

Results flagged for a closer look

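In 16 cases 1 animal lay apart from the other 6: its gap to the nearest animal, as a share of the range of all 7 (log2 levels for genes), was above the 95% critical value of Dixon's test. Chance alone passes about 1 in 20 groups. Of 220 named genes 15 passed (6.82%), against 62 of 801 (7.74%) and 136 of 2234 (6.09%). The named genes thus passed about as often as genes at large.

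Sham 1 lay apart, above the others, in 6 genes, with shares of 0.627 for CD8A, 0.798 for GZMA, 0.654 for PSMB10, 0.637 for PSMB9, 0.663 for IRF1 and 0.578 for GBP1.

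Sham 4 lay apart, below the others, in 6 genes: SLC25A6 (a mitochondrial ADP/ATP carrier, 0.667), PGK1 (a glycolytic kinase, 0.583), HSP90B1 (a chaperone of the endoplasmic reticulum, 0.754), IGFBP7 (an insulin-like growth factor-binding protein, 0.595), SUMO2 (a ubiquitin-like modifier, 0.721) and PSMB6 (a proteasome subunit, 0.683). Its share of probes well above background lay apart above the others (0.756). Sham 2 lay apart above the others for CASP10 (0.633) and below them for KIT, a receptor tyrosine kinase of mast cells (0.658), and sham 3 above them for TNNI1, the slow troponin I (0.638).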

How the results depend on the processing

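The count of 50 genes with an SD over 1 was 31 when the mean of all probes stood for a gene and 80 with a mean over 500, where 15 of the 25 most variable genes were shared; under the other alternatives that keep all animals it was 40 to 60. Leaving out 1 animal, with probes and genes chosen again from the other 6, gave 30 to 56, lowest without sham 2, with 16 to 25 of the most variable and 23 to 25 of the brightest genes shared, and 9 to 11 interferon-stimulated genes with an SD over 1. The 1 probe called between scans became 2 under quantile normalization, 0 under normexp, 9 in the authors' table, 3 without a filter on background and 0 without any 1 animal. Median signals reversed the order of brightness of the scans (exact permutation test, p = 0.8). The cause of these changes was not tested. No paired analysis was possible because a single group was used. With 7 arrays, 1 for each animal, differences between animals and between preparations of RNA cannot be told apart, and dim probes near background limit what low values show.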
